A study of Arabidopsis with 26 samples.

Results

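The strength and shape of BRM binding were compared in seedlings carrying the syd-5 mutation, BRM-GFP brm-1 syd-5, and in seedlings without it, BRM-GFP brm-1. The comparison is confined to places where BRM was called in every library. Peaks of the 4 lists were merged wherever they overlapped by at least 1 bp on chromosomes 1 to 5, which gave 17788 regions, and the 11364 regions that held a peak of all 4 lists (63.9%) are the members. In 9388 of them each list had exactly 1 peak. Where a list had several peaks in a region, the one with the highest −log10 q, the peak caller's measure of how unlikely the peak is under background, gave the values. Regions that lost or gained a peak altogether lie outside this set by construction.

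The data are chromatin immunoprecipitation sequencing (ChIP-seq) peak lists of Arabidopsis seedlings aged 14 days, precipitated with an antibody against green fluorescent protein (GFP). Both genotypes carry a BRM-GFP fusion in the brm-1 mutant, and one of them also carries syd-5, a mutant allele of SYD. Each has 2 libraries, and the 2 genotypes are called syd-5 and control seedlings from here on. SYD peaks come from the 2 libraries labelled SYD-GFP syd-5 whose label and deposited file name state the same line. The promoter that drives each fusion, and whether syd-5 removes all SYD protein, are not given in the sources used here. Label and file name state the same line for 7 of the 26 lists of the series, among them all 4 BRM lists and both SYD lists used here, and different lines for the other 19. MINU2 is among those 19, so 2 readings are given side by side. Both libraries labelled MINU2-GFP minu2-1 have file names of SWI3D-GFP lines, one of swi3d-1 alone and one that also states syd-5, and both lists named MINU2-GFP minu2-1 carry the label SYD-GFP syd-5. The lists of either MINU2 reading hold peaks on the organelle genomes, while the BRM and SYD lists hold none. Batch and protein cannot be told apart there.

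SWI/SNF complexes are chromatin remodellers that use an ATPase to slide or evict nucleosomes. Arabidopsis has several alternative ATPases, among them BRM (BRAHMA), SYD (SPLAYED) and the MINU proteins, each of which works with accessory subunits. BRM and SYD have both shared and separate roles in seedling growth, hormone responses and flower development. A narrow peak summit marks where the precipitated fragments pile up most, the fold enrichment is the height of that pile over background, and the width is the stretch of DNA called as bound.

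The lists held 15011 and 16058 peaks in syd-5 seedlings and 15694 and 15375 in control seedlings. The files list peaks and not reads, so the depth of each library is unknown, and yield and occupancy cannot be told apart. Fold enrichment and q are the authors' own values for each peak. The labels call the libraries replicates without saying that they come from separate plantings, so their spread may be partly technical. With 2 libraries against 2, the smallest p that an exact permutation test can give is 0.333.

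The order of BRM regions by strength was similar in both genotypes, but libraries of different genotype differed more than replicates did. Strength was ranked as the percentile of −log10 q among the same 11364 regions in each list. Across these regions, Spearman's rho was 0.838 to 0.843 for the 4 pairs of libraries that cross genotypes, against 0.901 between the syd-5 replicates and 0.920 between the control replicates. The regions are not independent replicates, so these correlations are descriptions. A region's percentile differed by a median of 9.21 points across genotypes and 6.51 points within them. The change of mean percentile (syd-5 seedlings minus control seedlings) had a median of 0.197 points, with 5% of regions below −23.2 and 5% above 22.8. In the weakest quintile of regions the median difference was 7.63 points across genotypes, 7.74 between the syd-5 replicates and 6.81 between the control replicates. In the strongest quintile it was 3.50 points, against 2.13 between the syd-5 replicates and 2.14 between the control replicates.

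**Figure D1:**
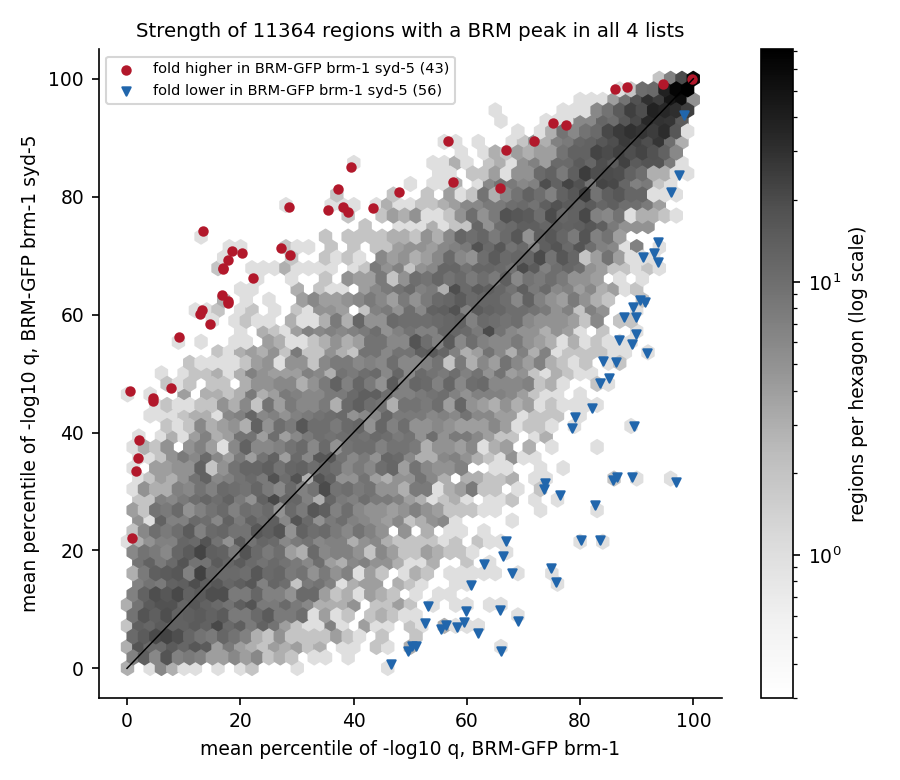
Mean percentile of −log10 q over the 2 BRM-GFP brm-1 syd-5 libraries (vertical) against that over the 2 BRM-GFP brm-1 libraries (horizontal) for 11364 regions, shaded by the number of regions per hexagon on a log scale; the line marks equal values. Red circles are the 43 regions called higher in fold enrichment in syd-5 seedlings and blue triangles the 56 called lower, and both sets lie at the edges of the cloud.

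The 3 strongest regions by mean percentile were near the top of all 4 lists. Regions are named after the nearest protein-coding gene in RefSeq assembly TAIR10.1, and their positions are on TAIR10. The region of highest mean percentile lay at AT3G10040 (chromosome 3, 3096077 to 3099117), where the enrichment over background was 17.58 and 20.90 in syd-5 seedlings and 17.41 and 17.59 in control seedlings. The next lay at GATA1, which encodes a GATA-type transcription factor (chromosome 3, 8685136 to 8688712), with 12.4 and 13.9 in syd-5 seedlings and 13.0 and 12.4 in control seedlings. The region at LBD41, which encodes a LOB-domain transcription factor (chromosome 3, 535870 to 538913), had 18.9 and 17.0 in syd-5 seedlings and 16.0 and 13.5 in control seedlings. None of these 3 passed the test of a difference in fold enrichment. Their mean summits lay 2.5 bp apart between genotypes at AT3G10040, 48.5 bp at GATA1 and 6 bp at LBD41. All 3 also held peaks of both SYD libraries and of both lists of either MINU2 reading.

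Fold enrichment over the whole set was slightly lower in syd-5 seedlings. The median fold was 2.97 and 3.15 in syd-5 seedlings (mean 3.06 ± 0.129, SD, n = 2) and 3.27 and 3.19 in control seedlings (mean 3.23 ± 0.0589, SD, n = 2). The groups did not overlap, but replicate 2 of syd-5 seedlings lay closer to both control libraries than to its own replicate. The log2 ratio was −0.08 (exact permutation p = 0.333, two-sided). It was −0.03 without syd-5 replicate 1 and −0.12 without replicate 2. This shift of the whole library was removed before single regions were tested, so each difference below is relative to it.

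Few regions were called in fold enrichment, and with 2 libraries against 2 this does not show that the others were unchanged. limma with Benjamini-Hochberg adjustment called 43 regions higher in syd-5 seedlings, 0.378% of the 11364 tested, and 56 lower, 0.493%. At an unadjusted limma p under 0.05 there were 2465 regions, 21.7%. The fold values of the 2 genotypes did not overlap at 3271 regions that were higher in syd-5 seedlings (28.8%) and 2773 that were lower (24.4%). Across regions, the fold differences of the 2 same-numbered pairs of libraries correlated at 0.444, and those of the crossed pairs at 0.448. The number called depended on single libraries. It was 210 without syd-5 replicate 1, 28 without control replicate 1 and 19 without control replicate 2. Without the removal of the library shift, 69 regions were called higher and 299 lower. No region was called by rank (limma, 0 of 11364, 0% in either direction), although 2177 (19.2%) had an unadjusted limma p under 0.05, and limma with a trend of variance on strength called 789, of which 373 were higher and 416 lower.

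The regions called lower were narrower in syd-5 seedlings than in control seedlings, whereas those called higher were slightly wider. Among the 56 lower regions, the median fold was 2.54 and 2.71 in syd-5 seedlings and 5.11 and 4.92 in control seedlings. Their median width was 791.5 and 982 bp in syd-5 seedlings and 2228 and 1975.5 bp in control seedlings. Among the 43 higher regions, the median fold was 3.78 and 4.20 in syd-5 seedlings and 2.46 and 2.44 in control seedlings, and the median width 1021 and 1139 bp against 969 and 906 bp. The calls were chosen by fold, so these folds describe them and test nothing. Width was not used for the calls, but it comes from the same peaks.

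MINU2 peaks were commoner at the regions called higher than at those called lower, and no test was run on these shares. Both lists labelled MINU2-GFP minu2-1 had a peak in 33 of the 43 higher regions (76.7%) and in 17 of the 56 lower ones (30.4%), against 55.7% of all 11364 regions. Both lists named MINU2-GFP minu2-1 had one in 38 of 43 (88.4%) and in 36 of 56 (64.3%), against 82.0% of all regions. SYD peaks were present in both SYD libraries at 41 of the 43 higher regions (95.3%), 50 of the 56 lower ones (89.3%) and 85.2% of all regions. No called region of either direction lacked SYD altogether, against 785 (6.91%) of all regions. Those 785 were mostly weak, with a median percentile of 19.5, and only 4 of the 99 called regions lay in the weakest quintile. The median percentile of the SYD peak was 66.1 at higher regions and 41.8 at lower ones, against 49.4 at all regions.

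The largest called increases in fold enrichment, by a rule that also asked for at least average strength, lay at PG2, ROD1, PUB26 and AT5G62560. At ROD1, which encodes an enzyme of membrane lipid exchange (chromosome 3, 5350316 to 5352770), fold enrichment was 9.20 and 10.4 in syd-5 seedlings and 6.29 and 4.74 in control seedlings. Both syd-5 libraries were above both others, and the centred log2 difference was 0.92 ± 0.15 (SE, limma adjusted p = 0.0323). The mean summits there lay 467 bp apart (limma adjusted p = 0.0374), so the folds were read at different positions. At PG2, which encodes a polygalacturonase-related cell wall protein (chromosome 1, 26511055 to 26515176), it was 5.15 and 6.54 in syd-5 seedlings and 2.99 and 2.50 in control seedlings, a difference of 1.17 ± 0.15 (SE, limma adjusted p = 0.0153). The summits of this region differed by −1239 bp on average, a difference that did not pass the test (limma adjusted p = 0.108). The folds were also read at different positions at PUB26, a gene for a U-box ubiquitin ligase (chromosome 1, 18428336 to 18433716), with 4.94 and 4.81 in syd-5 seedlings and 2.81 and 2.75 in control seedlings, where the summits lay 2879.5 bp apart. The same holds at AT5G62560 (chromosome 5, 25109194 to 25115190), with 6.47 and 5.35 in syd-5 seedlings and 3.36 and 3.41 in control seedlings, where they lay 2563.5 bp apart. All 4 regions held peaks of both SYD libraries and of both lists of either MINU2 reading. The call at PG2 held under the 10 alternatives run for it. Without control replicate 1 the adjusted p in limma was 0.0583 at PUB26 and 0.0838 at AT5G62560. Without control replicate 2 it was 0.0910 at ROD1, 0.0693 at PUB26 and 0.0778 at AT5G62560.

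The largest called decreases lay at AT4G04404, AT5G44565, AT1G17500 and HAT14, with mean summits that differed by −116.5 to 13.5 bp. At AT4G04404 (chromosome 4, 2170006 to 2170939), fold enrichment was 2.66 and 2.62 in syd-5 seedlings and 8.54 and 8.25 in control seedlings. The region stood at percentiles of 36.0 and 27.3 in syd-5 seedlings and 96.9 and 97.0 in control seedlings, so one of the strongest regions of the control lists was below the middle in syd-5 seedlings. The centred log2 difference was −1.59 ± 0.13 (SE, limma adjusted p = 0.00125), and the mean summits lay 13.5 bp apart. Peaks of both SYD libraries were present there, at a mean percentile of 10.2, and no MINU2 peak of either reading.

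AT5G44565 (chromosome 5, 17950804 to 17953629) had fold enrichments of 2.66 and 2.67 in syd-5 seedlings and 5.99 and 6.42 in control seedlings, a centred log2 difference of −1.14 ± 0.13 (SE, limma adjusted p = 0.0153). Its peaks measured 855 and 864 bp in syd-5 seedlings and 2826 and 2495 bp in control seedlings. At HAT14, which encodes a homeodomain-leucine zipper transcription factor (chromosome 5, 2067543 to 2071133), the folds were 2.58 and 2.75 in syd-5 seedlings and 5.78 and 5.72 in control seedlings. The peaks there were 1343 and 1215 bp wide in syd-5 seedlings and 3591 and 2953 bp wide in control seedlings. At AT1G17500 (chromosome 1, 6014620 to 6015571) the folds were 2.23 and 2.62 in syd-5 seedlings and 4.88 and 6.11 in control seedlings, and the widths 474 and 574 bp against 729 and 931 bp. At all 3 regions both libraries of one genotype lay clear of both libraries of the other, as the naming rule asked. The limma adjusted p was 0.0153 at HAT14 and 0.0184 at AT1G17500, and without control replicate 2 it was 0.0663 at AT1G17500. Both SYD libraries had a peak at all 3. Of the lists labelled MINU2-GFP minu2-1, 1 had a peak at each of the 3, and of those named MINU2-GFP minu2-1, 2 had one at AT5G44565 and AT1G17500 and 0 at HAT14.

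**Figure D2:**
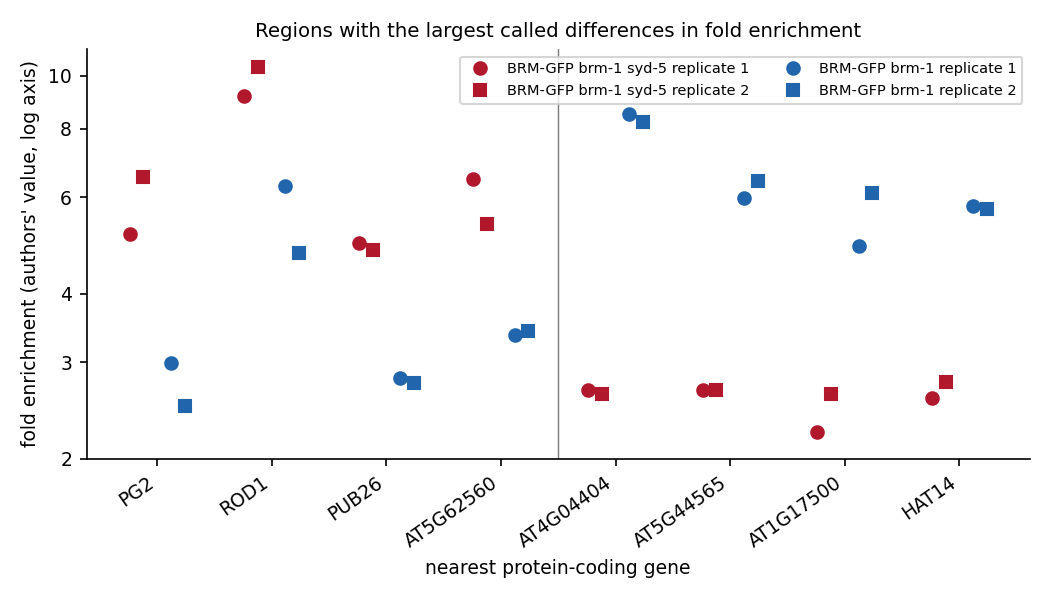
Fold enrichment (the authors' value, log axis) in each of the 4 libraries at the 8 regions with the largest called differences; red points are BRM-GFP brm-1 syd-5 and blue points BRM-GFP brm-1, circles replicate 1 and squares replicate 2. Left of the line both BRM-GFP brm-1 syd-5 libraries lie above both BRM-GFP brm-1 libraries, and right of it both lie below.

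By rank the largest differences were partly at other genes, and none passed the limma test of rank, although 7 of the 8 regions passed that of fold. RGLG3, which encodes a RING-type ubiquitin ligase (chromosome 5, 25608761 to 25610124), stood at percentiles of 81.9 and 74.4 in syd-5 seedlings and 30.8 and 26.6 in control seedlings (limma adjusted p = 0.160). The differences at AT4G09150, EMB2421 and AT5G22890 were 45.6, 44.4 and 44.1 points. In the other direction AT4G04404, AT1G17500, PDV1 and AT5G44565 differed by −65.4, −61.8, −58.5 and −56.7 points. PDV1 encodes a component of the plastid division machinery (chromosome 5, 21610730 to 21614478), and its region stood at 10.6 and 32.8 in syd-5 seedlings and 77.7 and 82.8 in control seedlings. The percentiles of the 2 genotypes did not overlap at 3141 regions higher in syd-5 seedlings (27.6%) and 2957 lower (26%), which is the background for these 8.

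Genes of 8 groups were looked up in the regions: SWI/SNF subunits, floral and meristem regulators, abscisic acid and seed maturation, gibberellin, auxin, light signalling, the circadian clock and heat response. The 181 symbols gave 156 genes, of which 107 had a region with its mean summit in the gene or within 1000 bp of it. Where a gene had several such regions, only a single region is given, as at PIN3, ARP4 and FLC, which had 2 each. limma called 2 of the 107 regions higher in fold enrichment and 0 lower, against 0.378% and 0.493% of all regions. The percentiles did not overlap at 39 regions that were higher in syd-5 seedlings and 21 that were lower, against 27.6% and 26% of all regions. The 2 called genes were HAI1 and PIN3. HAI1 encodes a protein phosphatase of abscisic acid signalling, and its region (chromosome 5, 23894490 to 23897293) had folds of 5.50 and 5.11 in syd-5 seedlings and 3.20 and 3.09 in control seedlings (log2 difference 0.83 ± 0.13, SE, limma adjusted p = 0.0314). PIN3 encodes an auxin efflux carrier, and its region (chromosome 1, 26742899 to 26746824) had 5.67 and 5.95 in syd-5 seedlings and 3.63 and 3.76 in control seedlings (log2 difference 0.73 ± 0.13, SE, limma adjusted p = 0.0377). At both genes the replicates were close together and the genotypes did not overlap. Neither call held without a control library: the limma adjusted p was 0.0697 at HAI1 and 0.100 at PIN3 without control replicate 1, and 0.0784 and 0.0802 without control replicate 2.

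Clock genes had the highest median percentile difference of the 8 groups, while on the log2 fold scale the highest median was that of SWI/SNF subunits, 0.29 over 5 regions. The clock median over 13 regions was 6.06 percentile points and 0.17 on the log2 fold scale, against 0.197 points and 0.02 over all regions, and 0 of the 13 were called by limma in fold or rank. LHY, which encodes a morning-expressed repressor of the clock, stood at percentiles of 83.9 and 69.4 in syd-5 seedlings and 53.6 and 46.9 in control seedlings. CCA1, the close relative of LHY, had 22.3 and 74.7 in syd-5 seedlings and 7.60 and 32.8 in control seedlings, so the genotypes overlapped and the replicates were far apart. The products of ELF4, ELF3 and LUX form the evening complex, and their differences had both signs. The differences were −7.71 points at ELF4 and −5.48 at ELF3, whereas LUX, added after its values were seen, stood at 93.1 and 93.5 in syd-5 seedlings and 73.2 and 76.1 in control seedlings, 18.6 points higher.

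Light signalling genes had a median difference of 4.20 points over 18 regions, and 13 of the 18 were positive. The percentiles of the genotypes did not overlap at 8 regions that were higher in syd-5 seedlings and 3 that were lower, against 27.6% and 26% of all regions. Of the 18, 0 were called in fold. The positive end was led by PHYD, a phytochrome gene, with percentiles of 53.5 and 35.4 in syd-5 seedlings and 16.3 and 15.1 in control seedlings, and by PHOT1, a phototropin gene, with 79.9 and 80.6 against 66.7 and 51.9. At PHOT1 the peaks measured 612 and 640 bp in syd-5 seedlings and 2023 and 2842 bp in control seedlings. The negative end was led by PIF3 and PIF1, genes for phytochrome-interacting factors, with differences of −13.7 and −12.4 points, although PIF1 had 1.14 without control replicate 2. Differences in the family had both signs: PIF7 differed by −7.79 points, and PIF4 and PIF5 by 13.6 and 6.46, these 3 named after their values were seen. Auxin genes had a median of 2.99 points over 19 regions. IAA19, for an Aux/IAA repressor, differed by 20.9 points, while IAA29 and PIN7 differed by −13.0 and −12.4. Heat response genes had a median of 2.25 points over 14 regions, from 30.6 at DREB2B and 27.2 at HSFA1B, both genes for transcription factors, to −15.7 at HSFA1D and −14.7 at HSP70.

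Gibberellin genes had the lowest median, −2.21 points over 10 regions, and 8 of the 10 were negative. The percentiles of the genotypes did not overlap at 4 regions that were lower in syd-5 seedlings and 2 that were higher, against 26% and 27.6% of all regions. Of the 10, 0 were called in fold. GA2OX2, for an enzyme that inactivates gibberellin, stood at percentiles of 64.1 and 51.7 in syd-5 seedlings and 80.1 and 88.9 in control seedlings, and RGL3, a DELLA repressor gene, differed by −12.7 points. GA3OX1, for an enzyme that makes active gibberellin, differed by 9.59 points among the weakest regions, and SLY1, for the F-box protein that targets DELLA proteins, by 2.33. Floral and meristem regulators had a median of −1.94 points over 11 regions. LFY, a floral meristem identity gene, stood at 18.3 and 13.3 in syd-5 seedlings and 41.9 and 35.8 in control seedlings. FUL, a MADS-box gene, differed by −16.7 points, CLV1, a receptor kinase gene of the meristem, by 14.6, and FLC, the floral repressor gene, by 5.93. Abscisic acid and seed maturation genes had a median of 0.0968 points over 17 regions, from 23.1 at DOG1, a dormancy gene, and 21.0 at HAI1 to −22.7 at RD29A, a stress-induced gene, and −15.0 at ABF4, for a transcription factor.

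Of the SWI/SNF subunit genes, 5 of the 11 matched had a region. The BRM gene itself had one of the strongest regions of the whole set, at a mean percentile of 99.9, with fold enrichments of 7.61 and 7.94 in syd-5 seedlings and 6.89 and 6.58 in control seedlings (chromosome 2, 18922238 to 18923566). Whether signal there comes from the transgene or from the gene cannot be told apart. The difference did not pass the limma test (adjusted p = 0.220). The other 4 were ARP4 and SWI3C, with differences of 20.0 and 18.1 points, CHC1 with 1.45 and ARP7 with −13.0. The value at ARP7 was 0.629 without syd-5 replicate 1 and 3.12 without control replicate 1. SYD had a BRM peak in or within 1000 bp of the gene in both syd-5 libraries and in 1 of the 2 control libraries, and CHR23, the gene of MINU2, had none in any of the 4.

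Relative to control seedlings, BRM in syd-5 seedlings was stronger at regions with SYD or MINU2 peaks than at similarly strong regions without. Strength here is the mean percentile over the same 4 libraries, so within its quintiles a gap in a genotype pushes the other the opposite way. Only the difference between genotypes is therefore read below. Before any matching, regions with MINU2 by label were stronger than those with none, at median percentiles of 66.9 and 22.5. Regions with a SYD peak in both SYD libraries numbered 9680 (85.2%) and those with none 785 (6.91%). SYD peaks are commoner at strong BRM regions: both libraries had one at 62.5% of the weakest quintile and 99.7% of the strongest. Classes were therefore compared within quintiles of BRM strength that held at least 20 regions of each class, which for SYD are the 3 weaker quintiles. There, regions with SYD exceeded regions without it in mean BRM percentile by 3.60 and 3.99 points in syd-5 seedlings and by −0.667 and 1.16 points in control seedlings. The libraries of the 2 genotypes did not overlap, and the difference between them was 3.55 points (exact permutation p = 0.333, two-sided). It was 1.16 points without control replicate 1. On the log2 fold scale the difference was 0.05, and it was 0.01 without control replicate 1, 0.09 without syd-5 replicate 1 and 0.01 with no split into quintiles (exact permutation p = 0.667, two-sided).

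MINU2 peaks gave the same direction, largely at the same regions. Of the 6325 regions with peaks of both labelled lists, 6230 also held peaks of both SYD libraries. Regions with a peak of both lists labelled MINU2-GFP minu2-1 exceeded regions with none by 5.71 and 5.71 points in syd-5 seedlings and by −2.18 and −1.83 points in control seedlings. Replicates lay within 1 point of each other, and the difference between genotypes was 7.71 points (exact permutation p = 0.333, two-sided). With the lists named MINU2-GFP minu2-1 it was 4.39 points. On the log2 fold scale it was 0.15 by label. In each of the 5 quintiles, both syd-5 libraries had the higher values in either reading. In the middle quintile, by label, the excess was 8.80 and 7.91 points in syd-5 seedlings and −3.69 and −3.83 in control seedlings.

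**Figure D3:**
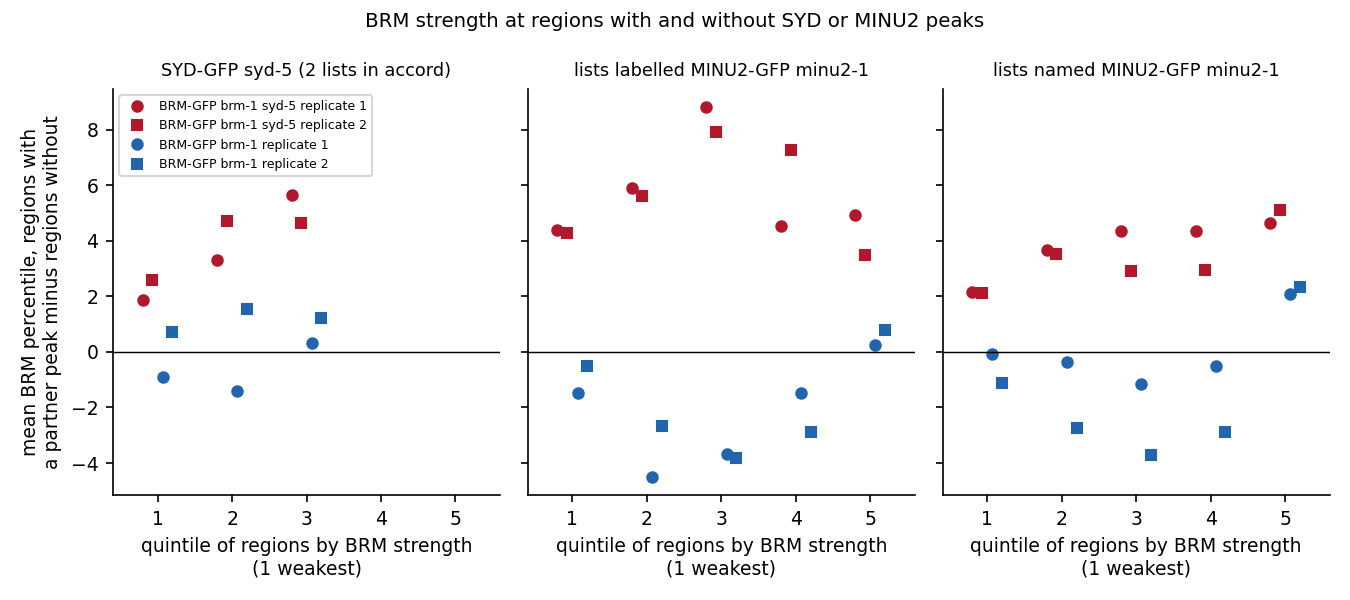
Mean BRM percentile of regions with a peak of both partner lists minus that of regions with none, within quintiles of BRM strength, for SYD (left), the lists labelled MINU2-GFP minu2-1 (middle) and the lists named MINU2-GFP minu2-1 (right); each point is a library, red for BRM-GFP brm-1 syd-5 and blue for BRM-GFP brm-1. Both red points lie above both blue points in every quintile drawn, and quintiles with fewer than 20 regions in a class are left out.

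The change in percentile also graded with the strength of the partner. Regions with SYD were split into quintiles by the percentile of their SYD peaks, and within each quintile of BRM strength the mean percentile was taken relative to all regions with SYD in it. This relative value, syd-5 seedlings minus control seedlings, was −3.27 points where SYD was weakest, then −2.21, −0.465, 1.94 and 4.13 points where it was strongest. For the lists labelled MINU2-GFP minu2-1 the steps were −4.06, −2.005, 0.525, 3.71 and 8.70 points, and for the lists named MINU2-GFP minu2-1 −3.93, −1.71, −0.138, 2.08 and 3.74 points. The order was the same in all 3. Quintiles of BRM strength with fewer than 20 such regions were left out, so the last SYD step rests on 4 of them and the last 2 steps by MINU2 label on 4 and 3. Without matching, the mean change in the same order was −1.28, −0.952, 0.0456, 1.27 and 3.07 points for SYD. It was 0.0541, 1.31, 2.46, 4.16 and 5.33 by MINU2 label, none of them negative, and −3.29, −0.974, 0.601, 2.75 and 4.53 by file name. On the log2 fold scale the unmatched mean change for SYD did not grade. It was 0.00659, −0.00207, 0.000763 and 0.00469, and 0.0834 where SYD was strongest. For MINU2 it rose at every step, from 0.00897 to 0.157 by label and from −0.0523 to 0.0998 by file name. Where the SYD and labelled MINU2 classes were crossed, without matching for strength, the mean change was 2.67 points at 6230 regions with both, −2.20 at 539 with SYD and no MINU2, 7.37 at 19 with MINU2 and no SYD, and −3.19 at 562 with neither. With the lists named MINU2-GFP minu2-1, the values in the same order were 1.20, −3.25, −1.96 and −2.07 points at 8040, 946, 591 and 128 regions. Regions with SYD and no MINU2 thus had a negative mean change in both readings. It was above that of regions with neither by label and below it by file name.

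BRM peaks were narrower in syd-5 seedlings, as measured on the strongest peak of each list in a region. Median width was 813.5 and 882 bp in syd-5 seedlings (mean 847.75 ± 48.4 bp, SD, n = 2) and 932.5 and 907 bp in control seedlings (mean 919.75 ± 18.0 bp, SD, n = 2). The groups did not overlap, and the log2 ratio was −0.12 (exact permutation p = 0.333, two-sided). It was −0.06 without syd-5 replicate 1 and −0.18 without replicate 2, so its size depended on which syd-5 library was used. The ratio was −0.085 on regions with exactly 1 peak of each library and −0.053 where the strongest peaks overlapped by at least 50%. For the whole span of a library's peaks it was −0.097. Regions with more than 1 peak numbered 1165 and 1026 in syd-5 seedlings and 813 and 870 in control seedlings. The number of regions at least 2000 bp wide was 1593 and 1783 in syd-5 seedlings and 2031 and 1985 in control seedlings. In the strongest quintile the median width was 1913 and 2016 bp in syd-5 seedlings and 2157 and 2091 bp in control seedlings. In the weakest quintile it was 470 and 535 bp against 527 and 517 bp, where the groups overlapped. Fold and width were lower in the same library, replicate 1 of syd-5 seedlings, and the part of yield in the width was not tested.

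**Figure D4:**
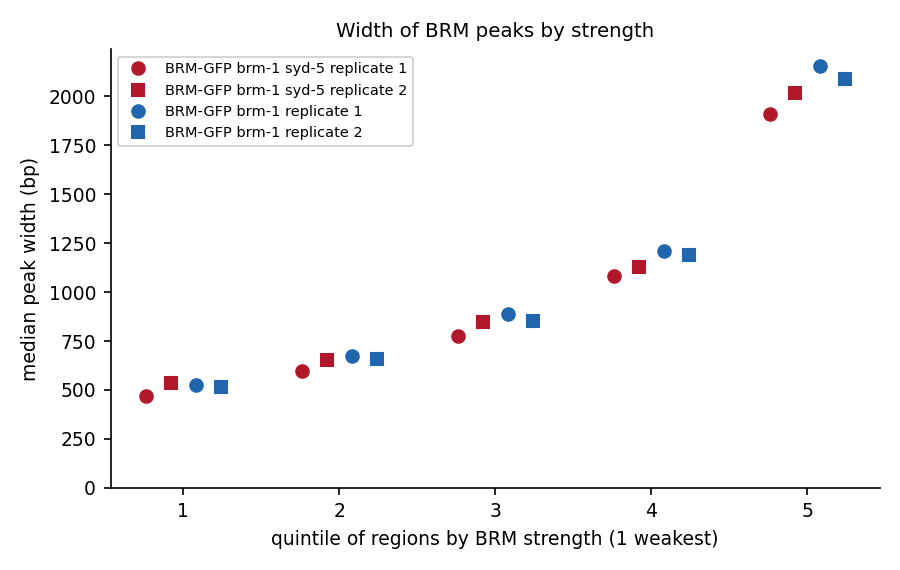
Median width in bp of the strongest BRM peak per region, by quintile of mean BRM strength, in each of the 4 libraries; red points are BRM-GFP brm-1 syd-5, blue points BRM-GFP brm-1, circles replicate 1 and squares replicate 2. Both BRM-GFP brm-1 syd-5 libraries lie below both BRM-GFP brm-1 libraries in quintiles 2 to 5, by 1913 and 2016 bp against 2157 and 2091 bp in the strongest.

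Relative to that shift, no single region changed in width in limma (0 of 11364, 0% in either direction), with 1451 (12.8%) at an unadjusted limma p under 0.05. When the whole span of a library's peaks in the region was used, 25 regions were called, 6 wider and 19 narrower. The largest differences by the naming rule, none of them called by width, were of several kilobases. These widths are of the strongest peak only, so other peaks of a list in the region are not counted. At DIS2, for a subunit of the ARP2/3 actin-nucleating complex (chromosome 1, 10957266 to 10960518), peaks were 394 and 460 bp wide in syd-5 seedlings and 3000 and 3253 bp wide in control seedlings, while the summits lay 41 bp apart (limma adjusted p = 0.0726). AT5G59350 (chromosome 5, 23939478 to 23943963) had widths of 647 and 605 bp in syd-5 seedlings and 4486 and 4342 bp in control seedlings, at similar folds of 4.34 and 3.72 against 4.03 and 3.97. AT5G52050 and AT2G41231 had 657 and 959 bp, and 418 and 834 bp, in syd-5 seedlings, against 5359 and 4808 bp, and 3798 and 4874 bp, in control seedlings. AT2G41231 was called in fold and in summit, with summits 1917 bp apart, and AT5G52050 in fold (limma adjusted p = 0.0406, 0.00181 and 0.0491).

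In the other direction, MSS3, for a calmodulin-like protein (chromosome 2, 17990678 to 17996669), had widths of 5897 and 5862 bp in syd-5 seedlings and 2020 and 1379 bp in control seedlings, at folds of 7.31 and 8.57 against 7.64 and 8.56. DAG1, for a transcription factor that represses seed germination (chromosome 3, 22892668 to 22896201), had 3068 and 2909 bp against 645 and 1056 bp. AT3G45530 had 1742 and 1223 bp against 391 and 445 bp, and AT4G17800 had 4263 and 7640 bp against 1682 and 1651 bp. The widths of the 2 genotypes, after centring, did not overlap at 3408 regions wider in syd-5 seedlings (30%) and 2139 narrower (18.8%).

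Width was set beside the partners as well. Regions with a peak of both lists labelled MINU2-GFP minu2-1 had a median width of 1145 and 1234 bp in syd-5 seedlings and 1265 and 1252 bp in control seedlings, and those with none 463 and 511 bp against 539.5 and 525.5 bp. Within quintiles of strength, the log2 excess in width of regions with MINU2 was 0.62 and 0.63 in syd-5 seedlings and 0.55 and 0.54 in control seedlings, a difference of 0.08 (exact permutation p = 0.333, two-sided). The 2 genotypes overlapped in the 2 strongest quintiles. When peaks under a −log10 q of 10 were left out, the difference was 0.01 (exact permutation p = 0.667, two-sided). By file name the difference was 0.17, and in quintiles 1 to 4 regions with MINU2 were narrower than those with none in both control libraries. For SYD the excess was 0.53 and 0.56 in syd-5 seedlings and 0.54 and 0.57 in control seedlings. These overlapped, and the difference of −0.01 (exact permutation p = 0.667, two-sided) had no stable sign: it was 0.01 without either syd-5 library and 0.03 on regions with exactly 1 peak of each library.

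The genotypes also differed in where the summit lay. BRM summits lay nearer to the summits of SYD and of MINU2 in syd-5 seedlings than in control seedlings. At the 9680 regions with SYD, the median distance from the BRM summit to the nearest SYD summit was 106.5 and 105.5 bp in syd-5 seedlings (mean 106 ± 0.707 bp, SD, n = 2) and 168 and 166.5 bp in control seedlings (mean 167 ± 1.06 bp, SD, n = 2). Replicates differed by at most 1.5 bp and the genotypes by −61.25 bp (exact permutation p = 0.333, two-sided, the smallest possible). With any 1 library left out the difference lay between −60.25 and −58.75 bp. BRM summits within 100 bp of a SYD summit made up 48.4% and 48.6% of these regions in syd-5 seedlings and 36.4% and 37.0% in control seedlings. The SYD summits of the 2 SYD libraries lay a median of 39 bp apart.

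The same held for MINU2 in both readings. To the summits of the lists labelled MINU2-GFP minu2-1 the median distance was 103 and 104 bp in syd-5 seedlings and 185 and 181.5 bp in control seedlings, over 6325 regions. To those of the lists named MINU2-GFP minu2-1 it was 99.5 and 96 bp in syd-5 seedlings and 141 and 139.5 bp in control seedlings, over 9313 regions. Replicates were again nearly equal and the groups did not overlap. The difference was −79.75 bp by label and −42.5 bp by file name. In replicate 2 of syd-5 seedlings median fold and width were 3.15 and 882 bp, and in control replicate 2 they were 3.19 and 907 bp. The median distance to SYD in these 2 libraries was 105.5 and 166.5 bp. The part of yield in the distances was not tested.

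**Figure D5:**
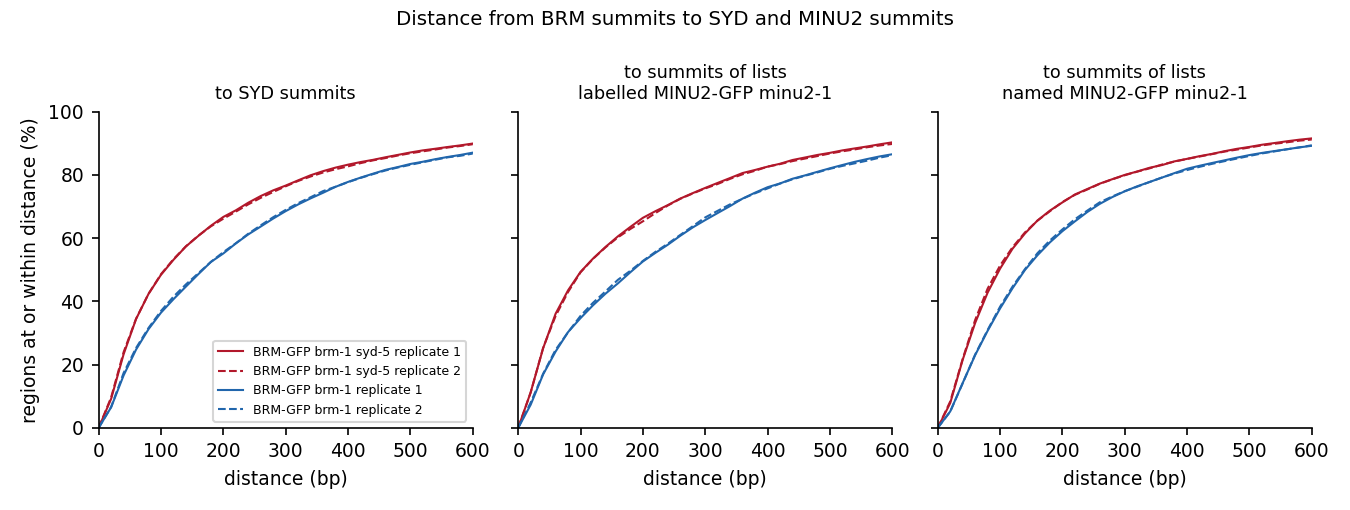
Cumulative share of regions (%) whose BRM summit lies at or within a given distance (bp) of the nearest SYD summit (left), the nearest summit of the lists labelled MINU2-GFP minu2-1 (middle) and of the lists named MINU2-GFP minu2-1 (right); red lines are BRM-GFP brm-1 syd-5, blue lines BRM-GFP brm-1, solid replicate 1 and dashed replicate 2. The replicates nearly coincide, and the red lines run above the blue ones, with 48.4% and 48.6% against 36.4% and 37.0% of regions within 100 bp of a SYD summit.

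The difference in distance to SYD was present in every quintile of BRM strength and was largest in the strongest. In the strongest quintile of BRM regions the median distance to SYD was 131.5 and 125 bp in syd-5 seedlings and 241.5 and 232.5 bp in control seedlings. In the middle quintile it was 92 and 92.5 bp against 136.5 and 133 bp, and in the weakest 128.5 and 124 bp against 172 and 169.5 bp. Region by region, the mean summit of syd-5 seedlings was the nearer to SYD in 63.8% of 9680 regions and the farther in 35.8%, with a median move of 25.5 bp towards SYD. Position relative to genes differed as well. Summits lay between annotated genes in 31.5% and 30.7% of all regions in syd-5 seedlings and in 26.5% and 27.1% in control seedlings. At the 785 regions without a SYD peak the shares were 10.1% and 8.15% in syd-5 seedlings and 7.77% and 8.41% in control seedlings, where the groups overlapped.

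Most single moves were small. The median distance between the summits of 2 libraries was 62.25 bp on average over the 4 pairs that cross genotypes and 53.25 bp over the 2 pairs of replicates (difference 9 bp, exact permutation p = 0.333 over the 3 ways to pair 4 libraries). limma called 270 regions with a moved summit, 2.38% of 11364, with 994 (8.75%) at an unadjusted limma p under 0.05. This count fell with any 1 library left out, and most without a control library. The called regions were wide, with a median of 1811 bp against 869 bp for the others. Their summits lay a median of 909 bp apart between genotypes, against 30 and 39 bp between replicates of syd-5 seedlings and of control seedlings. The calls were made on summit position, so these distances describe them and test nothing.

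These called moves were largely towards the partners. At the 260 called regions with SYD, the median distance to SYD was 56.25 bp in syd-5 seedlings and 645.25 bp in control seedlings, and the summit was nearer to SYD in syd-5 seedlings in 208 (80%) and farther in 51. At the 9420 other regions with SYD it was nearer in 65.3%, with medians of 121 and 173.5 bp. For the lists labelled MINU2-GFP minu2-1, 173 of 204 called summits (84.8%) were nearer in syd-5 seedlings, and for the lists named MINU2-GFP minu2-1, 174 of 239 (72.8%). Called summits lay between genes in 59.6% and 60.4% of regions in syd-5 seedlings and in 22.6% and 23.7% in control seedlings. Distance to a partner and position relative to genes were not used for the calls, although both follow from the same summits.

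Named moves, at regions with 1 peak per library and replicate summits within 50 bp, spanned up to 2563.5 bp. At AT5G62560 (chromosome 5, 25109194 to 25115190) the summit lay at 25114104 and 25114101 in syd-5 seedlings and at 25111531 and 25111547 in control seedlings (limma adjusted p = 0.00164). At EXGT-A3, for an enzyme that remodels cell wall xyloglucan (chromosome 2, 385047 to 388790), it lay at 387853 and 387805 in syd-5 seedlings and at 385440 and 385446 in control seedlings (limma adjusted p = 0.00164). Replicates lay within 48 bp of each other while the genotypes were kilobases apart. Both were asked for by the naming rule, so this contrast tests nothing. The height at EXGT-A3 was similar, with folds of 6.92 and 7.43 in syd-5 seedlings and 7.81 and 6.72 in control seedlings.

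At MPK18, for a mitogen-activated protein kinase (chromosome 1, 19973589 to 19976535), the summit lay at 19974533 and 19974543 in syd-5 seedlings and at 19976116 and 19976147 in control seedlings (limma adjusted p = 0.00261). RUG1 encodes an RCC1-family protein, and its region (chromosome 5, 2837554 to 2839394) was weak, at a mean percentile of 9.54, with summits at 2837761 and 2837787 against 2839238 and 2839257 (limma adjusted p = 0.00278). Its peaks measured 472 and 522 bp in syd-5 seedlings against 1811 and 1841 bp in control seedlings. The calls at all 4 regions were lost without either control library, where the limma adjusted p lay between 0.0546 and 0.0657. All 4 regions had peaks of both lists named MINU2-GFP minu2-1. Both lists labelled MINU2-GFP minu2-1 had a peak at each except RUG1, where 0 had one, and both SYD libraries had a peak at each except RUG1, where 1 had one.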

How the data were processed

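The submitters' processing notes name fastp, Bowtie2, MACS2 2.0, deepTools, ChIPseeker and the build TAIR10, without their roles or order; settings are not given in the sources used here. The deposited peak lists give the authors' fold enrichment (a ratio), −log10 p and −log10 q of each peak, with its summit. All columns of these lists could be mapped, 0 being left unmapped. From them, percentiles of −log10 q, log2 fold and log2 width (both centred on each library's median) and summit positions were compared over 11364 regions with limma 3.58.1 in R 4.3.3, with Benjamini-Hochberg adjustment over all regions at 0.05; Python 3.11.15, numpy 2.4.6, pandas 2.3.3, scipy 1.17.1 and matplotlib 3.10.9 did the rest. Percentiles entered limma as normal scores. Values of a library as a whole were compared by exact permutation over 4 libraries. The fits were tested on simulated data.

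Regions named are the 4 with the largest difference in each direction for fold, rank and width, among called regions (among all where fewer than 4 were called) whose 2 genotypes did not overlap and whose mean percentile was at least 50, the 4 largest summit moves at regions with 1 peak per library and replicate summits within 50 bp, and the 3 strongest. BRM, SYD and CHR23 are also named. In each gene list the 2 largest differences in each direction are named. Names come from the nearest protein-coding gene body to the mean summit in RefSeq's table of assembly TAIR10.1, since that table gives no strand for gene starts. The regions and gene lists were chosen with earlier results of these data known. Alternatives changed the regions, the peak threshold, the scaling, the variance model, the partner lists and the libraries. Libraries with the same replicate number were not treated as pairs in the main fits, and the labels do not say whether they are.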

Additional observations from a re-analysis of the deposited data

How the results depend on the processing

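Depth is unknown, and each genotype has 2 libraries, so no exact test of a library value could pass 0.05. Of the values that answer a comparison, 145 settings kept direction and side of the threshold, and 6 reversed, all of them the SYD difference in log2 width (−0.01): it was 0.0338 with 1 peak per library, 0.0354 with peaks overlapping by 50%, 0.105 when every library labelled SYD-GFP syd-5 was used, 0.0632 within quintiles of width (chosen after seeing the data) and −0.0497 to 0.0120 with 1 library left out. The 99 fold calls became 54 with 1 peak per library, 42 with 50% overlap, 262 with −log10 q of at least 10, 177 with equal numbers of peaks, 423 with a variance trend, 368 without centring and 19 to 210 with 1 library left out. Rank calls were 789 with the trend, against 0. Width calls were 1 with 1 peak per library and 25 with the span of all peaks, against 0. The 270 summit calls became 158 with 1 peak per library, 164 with 50% overlap and 0 to 119 with 1 library left out. With the replicate block there were 18 fold calls and 0 summit calls. Deviations of same-numbered libraries correlated at 0.00727 for rank, −0.00471 for fold and 0.0152 for width across regions, so no shared deviation was seen. The labels do not say whether same-numbered libraries were grown or processed together. The distance to SYD differed by −75.9 to −54.75 bp over all settings run, and that to MINU2 by −93.75 to −42.5 bp. At named regions and list genes 504 settings kept direction and side of the threshold, 27 lost the call, 13 gained one and 3 reversed, none of them called: the rank difference at ARP7, −13.0, ranged over −29.9 to 3.12 with 1 library left out, and that at PIF1, −12.4, over −26.3 to 1.14. The cause of these changes was not tested. Distance to gene starts was not run.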
